A study of Mus musculus with 7 samples.

Results

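Ccl5-high CD8 T cells are the part of the lung CD8 T cell pool that holds much mRNA of the chemokine CCL5, and 398 of 50955 cells passing quality filters were of this kind (0.781%). They were selected on the mRNA counts of their own marker genes in all 7 libraries. A barcode counted when it held at least 600 unique molecular identifiers (UMIs, each standing for 1 captured mRNA), at least 300 genes and at most 20% of UMIs from mitochondrial genes. It also needed at least 2 UMIs of Cd3d, Cd3e and Cd3g together, at least 2 of Cd8a and Cd8b1 together and at least 3 of Ccl5. Cells with any UMI of Cd4, Trdc or Ncr1, with more than 1 of Cd79a and Ms4a1 together, or with 20 or more of S100a8 and S100a9 together were left out. The study profiled peripheral lung of 4 Smad4iko mice (Smad4fl/fl;Rosa26-creERT2, in which a tamoxifen-activated Cre at the Rosa26 locus can delete floxed Smad4 in nearly all cell types) and 3 Smad4fl/fl littermates without Cre, with 1 droplet 3' RNA library per mouse. Every mouse, control animals included, carried floxed Smad4 and was given tamoxifen (75 mg/kg, into the peritoneum, 5 doses). Dosing fell in postnatal days 21 to 26, and lungs were taken at 8 weeks of age. The deletion was thus neither restricted to T cells nor started before birth, and the labels do not say which part of Smad4 is floxed.

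CD8 T cells leave the thymus as naive cells that express lymph node homing receptors, and after meeting antigen they become effector cells, which store granzymes and perforin, and memory cells. Central memory cells keep the lymph node homing receptor CCR7, effector memory cells circulate without it, and resident memory cells stay in tissues such as the lung, often with the integrin CD103. CCL5 mRNA is held ready in antigen-experienced CD8 T cells, and SMAD4 is the shared partner that carries TGF-beta and BMP signals into the nucleus, where TGF-beta is known to restrain effector genes and to favour residence in tissue.

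Nkg7, which encodes a cytotoxic granule membrane protein and serves here as a marker of the cells, and Gzma, which encodes granzyme A and stood highest over Ccl5-negative CD8 T cells after Ccl5 itself, are shown by the 250 bases before their RefSeq transcription start (GRCm38.p6). The Nkg7 stretch is chr7:43436888-43437137 on the plus strand, and GENCODE M21 begins the gene inside it, at 43437073. The Gzma stretch is chr13:113100982-113101231 on the minus strand. Capitals mark 2 motifs searched on both strands, the T-box half-site GGTGTGA, read by T-bet and EOMES, and the RUNX site TGTGGT, which appears as ACCACA on the other strand. They do not overlap each other.
Nkg7: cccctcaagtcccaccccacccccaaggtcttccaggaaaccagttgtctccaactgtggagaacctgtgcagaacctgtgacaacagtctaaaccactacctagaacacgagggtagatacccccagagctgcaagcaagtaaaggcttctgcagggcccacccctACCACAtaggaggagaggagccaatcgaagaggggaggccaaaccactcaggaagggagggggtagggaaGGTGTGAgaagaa
Gzma: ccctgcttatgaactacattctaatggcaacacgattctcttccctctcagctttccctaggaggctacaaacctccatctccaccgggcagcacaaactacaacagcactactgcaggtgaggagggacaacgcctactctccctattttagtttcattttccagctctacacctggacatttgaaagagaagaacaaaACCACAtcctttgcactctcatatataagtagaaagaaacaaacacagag
The T-box letters were present in 3.33% and the RUNX letters in 14.0% of 32851 RefSeq promoters of the same length, so a match describes the letters only.

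The 7 libraries held 46449235 to 66557262 UMIs. Ccl5-high CD8 T cells numbered 52, 21, 63 and 93 in Smad4iko 1 to 4 and 17, 61 and 91 in Smad4fl/fl 1 to 3. Their median depth was 8025 to 11045 UMIs per cell, and their summed UMIs ranged from 168710 in Smad4iko 2 to 952553 in Smad4fl/fl 3, so the smallest sets carry the largest counting error. No member barcode occurred in 2 libraries, while pairs of libraries shared 10 to 23 kept barcodes. By Xist, Smad4iko 3 and Smad4fl/fl 3 were from females and the other libraries from males. The labels give no batch, but Smad4iko 3 and 4 stood apart from Smad4iko 1 and 2 in several genes, as given below. Levels below are in CPM, the UMIs of a gene summed over the named cells of a library and scaled to a fixed total, so they compare libraries and populations but not genes. A difference between genotypes is on the log2 scale, Smad4iko over Smad4fl/fl.

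The choice of cells rests on Ccl5, so its level is a description. Among all 3163 gated CD8 T cells, 2308 had no Ccl5 UMI, 370 had 1, 87 had 2, 29 had 3, 14 had 4, 16 had 5 and 339 had 6 or more. Most members were thus far above the limit. The 29 cells with 3 Ccl5 UMIs, just inside, had 6.51 Gzma CPM and 319 Lef1 CPM in their summed RNA, and the 87 cells with 2, just outside, had 19.8 Gzma CPM and 460 Lef1 CPM. Cells at the edge therefore held little granzyme mRNA on either side.

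Defining markers of T cells were present. The T cell receptor gene Trac had a median of 419 CPM over the libraries (292 to 475), close to 391 CPM in Ccl5-negative CD8 T cells (349 to 483) and far above 11.1 CPM in NK cells (8.61 to 12.96), which were gated by Ncr1 and Klrb1c without Cd3 genes. Nkg7 had a median of 632 CPM (447 to 1035), against 226 CPM in Ccl5-negative CD8 T cells (189 to 348) and 2983 CPM in NK cells (2623 to 3686). No library of the Ccl5-high cells overlapped either of the other populations in Nkg7. B cells had 17.3 Nkg7 CPM (1.69 to 54.8) and alveolar macrophages 10.9 CPM (3.54 to 37.1), a measure of free RNA in the droplets.

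Cytotoxic genes led the differences between Ccl5-high and Ccl5-negative CD8 T cells, which passed the same gates but held no Ccl5 UMI. Because the cells were split by their RNA, these ratios carry no test. Gzma was a median of 51.3-fold higher within libraries, with 609 CPM (81.1 to 2223) against 11.3 CPM (5.21 to 14.0). Gzmb, encoding granzyme B, was 30.7-fold higher, with 102 CPM (10.5 to 439) against 3.48 CPM (1.95 to 6.58). Both were higher in 7 of 7 libraries. Pclaf, a gene of dividing cells and not of the cytotoxic programme, came next at 20.8-fold higher, also in 7 of 7 libraries. Serpinb9, an inhibitor that protects killer cells from granzyme B, was 10.8-fold higher, and the related serpin Serpinb6b 9.73-fold higher.

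Genes of cells that have left the naive state were also higher. S100a4 and S100a6, small calcium-binding proteins, were 11.6-fold and 5.79-fold higher, S100a4 in 6 of 7 libraries and S100a6 in all 7. Lgals1, encoding galectin-1, was 8.17-fold higher, and Anxa2, encoding annexin A2, 4.35-fold higher. Tbx21, encoding T-bet, had a median of 29.2 CPM (14.7 to 54.6) against 0.977 CPM in Ccl5-negative CD8 T cells (0.518 to 5.005). Eomes, the related factor of memory cells, had 39.1 CPM (9.72 to 43.0) against 9.27 CPM (2.26 to 16.1). Ly6c2, a surface protein of memory CD8 T cells in mice, had 595 CPM (287 to 730) against 209 CPM (168 to 237), with no overlap. Cxcr3, a receptor for interferon-induced chemokines, had 62.4 CPM (26.4 to 117) against 11.9 CPM (5.54 to 23.2), again with no overlap.

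Genes of naive and central memory cells were lower than in Ccl5-negative CD8 T cells but far from absent. Lef1, a transcription factor of naive T cells, had 305 CPM (228 to 400) against 617 CPM (390 to 686), and its ratio lay below 1 in 7 of 7 libraries. Ccr7, the receptor for entry into lymph nodes, had 455 CPM (222 to 751) against 810 CPM (364 to 1102). Il7r, the receptor for the survival cytokine IL-7, had 689 CPM (486 to 835) against 1033 CPM (814 to 1291). Tubb2a, Rgs10 and Dapl1 were lower in all 7 libraries, with median ratios of 0.319, 0.382 and 0.537. Itgae, encoding the CD103 chain, had 12.6 CPM (0 to 24.0) against 57.4 CPM (33.7 to 66.1). It was lower in every library of the Ccl5-high cells than in any of the Ccl5-negative ones. Because the Ccl5-negative cells also held more Lef1 and Ccr7 by median, this difference cannot be read as residence, which was not tested.

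**Figure D1:**
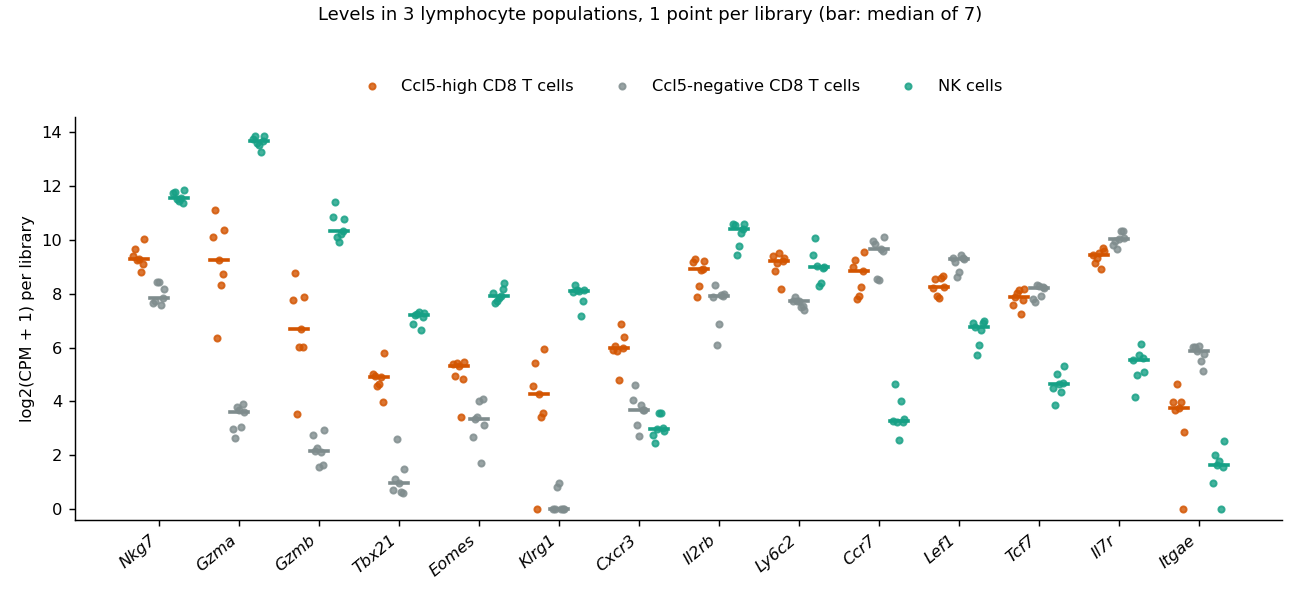
Levels of 14 genes as log2(CPM + 1), with 1 point per library and a bar at the median of the 7 libraries, for Ccl5-high CD8 T cells, Ccl5-negative CD8 T cells and NK cells. Gzma and Gzmb of the Ccl5-high cells lie between the other populations with a wide spread, Tcf7, Ccr7 and Il7r lie near the Ccl5-negative cells, and Itgae lies below them.

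Against NK cells the Ccl5-high cells kept a T cell programme. Ccr7 was a median of 47.6-fold higher and Il7r 17.6-fold higher within libraries, and Cd5, which dampens T cell receptor signals, had 107 CPM (73.6 to 184) against 0.547 CPM in NK cells (0 to 6.07). NK genes that the gate did not use were low. Cma1 had 2.30 CPM (0 to 29.6) against 534 CPM (414 to 747), Irf8 had 29.2 CPM (15.01 to 273) against 2101 CPM, and the adaptor genes Tyrobp and Fcer1g had 110 and 96.6 CPM against 2677 and 2500 CPM. Gzma was also lower in the Ccl5-high cells than in any NK library, where it ranged from 9863 to 14976 CPM.

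Single cells were not alike. To compare cells of unequal depth, each was thinned at random to 1500 UMIs. At that depth 57.0% of the 398 cells had an Il7r UMI, 50.5% a Ly6c2 UMI, 36.7% a Ccr7 UMI and 31.2% a Tcf7 UMI. Alveolar macrophages, which should lack these transcripts, had them in 0.691%, 2.89%, 1.17% and 0.145% of cells. Gzma was seen in 20.6% and Gzmb in 15.3% of the Ccl5-high cells, against 1.86% and 0.520% of Ccl5-negative CD8 T cells and 2.31% and 0.728% of B cells. Klrg1, a receptor of late effector cells, was seen in 4.77%, and Cx3cr1, a chemokine receptor of circulating effector cells, in 4.27%. Itgae was seen in 1.76%, against 7.85% of Ccl5-negative cells and 0.0857% of B cells. Gzmk, encoding granzyme K, was seen in 2.76% of cells and Pdcd1, encoding PD-1, in 0.754%. Without thinning, and at a median of 8551 UMIs over the libraries, 31.7% had a Gzma UMI and 6.03% an Itgae UMI, while alveolar macrophages at a median of 12129 UMIs had them in 13.5% and 0.543%.

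The effector genes were found together in a minority of cells. Among 396 cells thinned to 2500 UMIs, 32 had a Klrg1 UMI, and of these 84.4% had a Gzma UMI, against 18.1% of the cells without Klrg1. S1pr5, a receptor that keeps effector cells in the blood, was seen in 28.1% of the Klrg1-positive cells and in 1.37% of the others, and Cx3cr1 in 37.5% and 3.85%. Of the 93 cells with Gzma, 66.7% also had Gzmb, against 2.64% of the 303 without it. Tcf7 ran the other way, since 2.94% of 170 Tcf7-positive cells had Klrg1, against 11.9% of 226 Tcf7-negative cells. These shares pool cells of all libraries and are given as a description. Late effector transcripts were thus seen in a minority of the cells at this depth.

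Antigen receptor transcripts were sparse. A Trbv segment of the beta chain was seen in 12.1% to 22.2% of the cells of a library. Trbv13-2 and Trbv12-2 were each seen in 11 cells, from 4 and 5 libraries, and in each library the most frequent Trbv segment was held by 2 to 4 cells. The segments seen numbered 2, in 3 cells, in Smad4fl/fl 1 and 4 to 11 in the other libraries.

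The first question between genotypes is how many such cells the lungs held. Ccl5-high cells made up 0.797%, 0.311%, 0.749% and 1.37% of kept barcodes in Smad4iko 1 to 4, against 0.211%, 0.848% and 1.26% in Smad4fl/fl 1 to 3. The means were 0.806% ± 0.433 in Smad4iko and 0.774% ± 0.531 in Smad4fl/fl (SD, n = 4 and 3), and the ranges of the groups overlapped in most of their length (p = 0.771, two-sided exact permutation test over 35 splits, whose smallest p is 0.0286). Among gated CD8 T cells, Ccl5-high cells made up 10.2%, 7.95%, 11.9% and 15.2% in Smad4iko, against 5.67%, 14.3% and 17.5% in Smad4fl/fl. These means were 11.3% ± 3.04 and 12.5% ± 6.11 (exact permutation p = 0.743). Exact (Clopper-Pearson) 95% intervals of the lowest and highest CD8 shares were 3.34% to 8.92% in Smad4fl/fl 1 and 14.3% to 21.0% in Smad4fl/fl 3, and they cover counting error only. Mice of 1 genotype thus differed by more than counting error, and by more than the genotypes did.

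**Figure D2:**
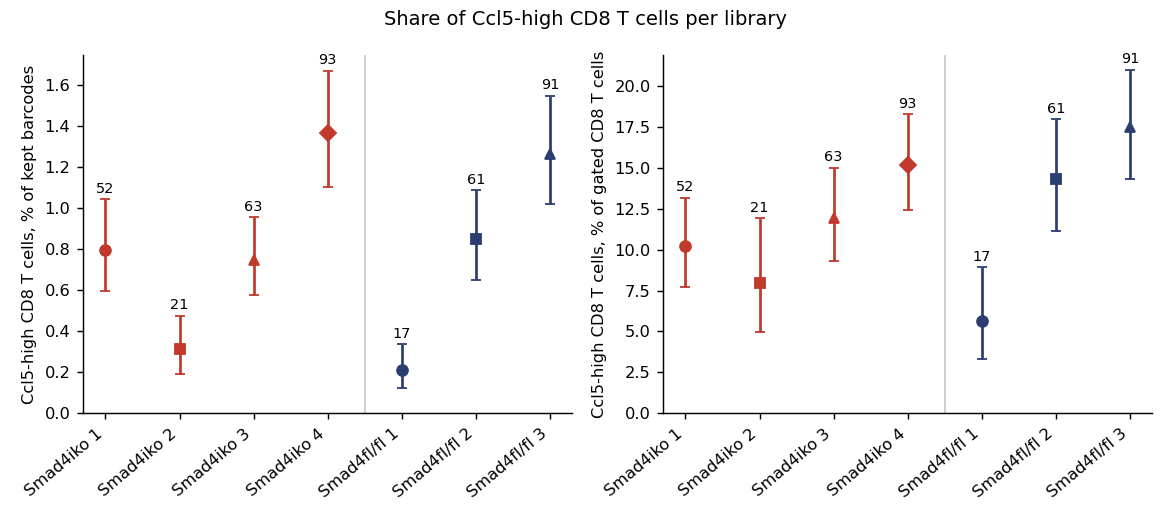
Ccl5-high CD8 T cells as a percentage of kept barcodes (left panel) and of gated CD8 T cells (right panel), with 1 point per library, exact 95% binomial intervals as bars and the number of cells above. Smad4iko libraries span 0.311% to 1.37% of kept barcodes and lie inside or just above the range of Smad4fl/fl, 0.211% to 1.26%.

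Smad4 itself, the deleted gene, had 52.6, 166, 36.0 and 71.3 CPM in Ccl5-high cells of Smad4iko 1 to 4, against 82.6, 110 and 80.8 CPM in those of Smad4fl/fl 1 to 3. Smad4iko 1, 3 and 4 lay below every Smad4fl/fl library and Smad4iko 2 above them all, on 28 UMIs from 13 of its 21 cells. The log2 difference was -0.22 ± 0.41 (SE), and it did not pass edgeR's quasi-likelihood test across all genes with Benjamini-Hochberg adjustment (adjusted p = 0.999833). Without Smad4iko 2 it was -0.61, and with Smad4iko 1 and 2 only it was 0.15, so its sign changed with the libraries used. In Ccl5-negative CD8 T cells, with more RNA, the groups did not overlap, with 84.9, 88.0, 49.3 and 58.0 CPM in Smad4iko against 121, 117 and 117 CPM in Smad4fl/fl. The reads come from the 3' end of the mRNA, so they need not lie in the deleted part, and the Smad4 count alone does not check the deletion.

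Smad7, the inhibitory Smad that TGF-beta switches on as a brake on its own signal, had 324, 338, 342 and 334 CPM in Smad4iko 1 to 4, against 515, 622 and 471 CPM in Smad4fl/fl. The Smad4iko values lay within a narrow band below all Smad4fl/fl values. The log2 difference was -0.54 ± 0.19 with an unadjusted p of 0.0155, which did not pass adjustment over all genes in edgeR, and it lay between -0.66 and -0.35 over the alternatives. Smad7 was also lower without overlap in Ccl5-negative CD8 T cells, with 370, 388, 396 and 423 CPM against 624, 610 and 502 CPM, and in NK cells, with 180, 156, 232 and 270 CPM against 463, 397 and 283 CPM. Skil, another feedback gene, had 119 to 204 CPM in Smad4iko and 169 to 262 CPM in Smad4fl/fl, overlapping. The receptor genes Tgfbr1 and Tgfbr2 differed by -0.17 ± 0.33 and -0.17 ± 0.25 on the log2 scale.

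Of the 20 tested TGF-beta output and feedback genes, 0 passed the test, 6 lay above 0 and the median log2 difference was -0.17. All 6123 genes tested had a median of -0.00277 and 49.6% above 0. Of 13 receptors and Smads, 0 passed, 3 lay above 0 and the median was -0.17. Without Smad4fl/fl 2, 10 of 20 output genes lay above 0 with a median of -0.01, and without Smad4iko 1, Smad4iko 3 or Smad4fl/fl 1 in turn 5 receptors and Smads did, of 12, 11 and 13 tested. A further fit left out 22 cells that held over 1% of RNA from any of several marker lists of other cell types. These lists covered B cells, neutrophils, macrophages and monocytes, epithelium, endothelium, mesenchyme, and erythroid cells and platelets. Lists of NK cells, other T cells and type 2 innate lymphoid cells were not used for this choice. In that fit 9 of 18 output genes and 4 of 9 receptors and Smads lay above 0, with medians of 0.01 and -0.02. Summed mesenchyme marker RNA was far higher in Smad4fl/fl 1 than in the other libraries, as given below. With Smad4iko 1 and 2 only, the receptor and Smad median was 0.10.

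**Figure D3:**
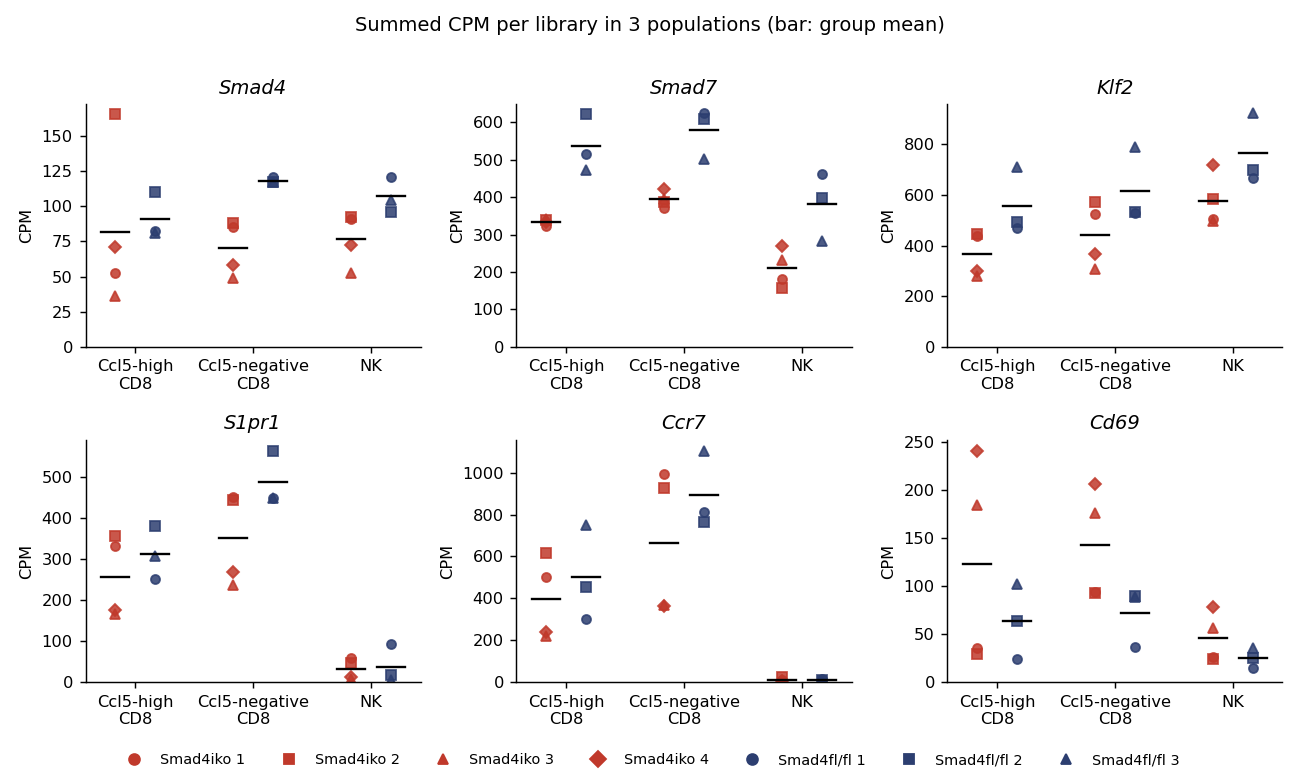
CPM per library of Smad4, Smad7, Klf2, S1pr1, Ccr7 and Cd69 in Ccl5-high CD8 T cells, Ccl5-negative CD8 T cells and NK cells, with Smad4iko left of Smad4fl/fl in each pair and bars at the group means. Smad7 is lower in every Smad4iko library in all 3 populations, and Smad4iko 3 and 4 (triangle and diamond) separate from Smad4iko 1 and 2 in S1pr1, Ccr7 and Cd69 of both CD8 populations.

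Across all genes no difference between genotypes passed the threshold. edgeR's quasi-likelihood test called 0 of 6123 genes at an adjusted p under 0.05 (0.0%), while 221 had an unadjusted p under 0.05 (3.61%). DESeq2 called 2 of 14686 genes (0.0136%), Hbb-bs and Ces1d. In simulated counts with the depth of these libraries, edgeR called 11.1% of genes changed 2-fold and 67.5% of genes changed 4-fold, so 2-fold changes would mostly be missed. Groups did not overlap in CPM in 72 genes higher in Smad4iko (1.18%) and 349 genes lower in Smad4iko (5.7%). Overlap was judged on CPM scaled to the library total only. The log2 differences also use edgeR's TMM normalization, by which 49.6% of genes lay above 0. Both counts thus depend on the scaling as well, and its part in them was not tested. The genes named next have the lowest unadjusted p among those whose groups do not overlap and whose average log2 CPM is at least 5, and none passed the adjusted test.

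Trim30a, an interferon-induced tripartite-motif gene (chromosome 7, 104409025 to 104465193, minus strand, GENCODE M21), had 70.7, 65.2, 69.1 and 65.5 CPM in Smad4iko, against 38.9, 40.4 and 34.6 CPM in Smad4fl/fl. The log2 difference was 0.99 ± 0.23 (unadjusted p = 0.00137), and it ranged from 0.76 to 1.12 over the alternatives. Close relatives lie beside it in the genome, and how the counting assigned reads shared between them is not given in the sources used here. Rara, encoding retinoic acid receptor alpha, had 34.5 to 47.4 CPM in Smad4iko and 4.86 to 23.9 CPM in Smad4fl/fl. Il17ra, the receptor chain for IL-17, had 54.3 to 93.1 CPM and 29.2 to 46.2 CPM. Pim1, a cytokine-induced kinase, had 332 to 417 CPM and 131 to 290 CPM. N4bp2l1, Agfg1, Usp1 and Fam189b were the other genes higher in every Smad4iko library by this rule, with log2 differences of 0.74 to 1.01. The ribosomal protein genes Rps10, Rpl41 and Rps27rt also stood higher, by 0.72, 0.86 and 0.96, and processed copies of such genes can share their reads.

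Genes lower in every Smad4iko library were led by Dusp2, a phosphatase that switches off MAP kinases. It had 235, 190, 168 and 224 CPM in Smad4iko, against 335, 441 and 346 CPM in Smad4fl/fl, a log2 difference of -0.74 ± 0.20 (unadjusted p = 0.00407). Rasgrp2, which activates the integrin regulator Rap1, had 97.7 to 135 CPM in Smad4iko and 189 to 206 CPM in Smad4fl/fl. Prkca, encoding protein kinase C alpha, had 46.0 to 83.0 CPM and 87.5 to 140 CPM. Dicer1, the nuclease that makes microRNAs, had 27.0 to 35.6 CPM and 51.4 to 77.7 CPM, and Chuk, an IkappaB kinase, had 13.5 to 28.0 CPM and 35.7 to 48.6 CPM. Rcn2, Mctp2, Ero1l, Sp4, Lrrc58, Smad7 and Svbp completed the list, with log2 differences of -1.34 to -0.54.

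**Figure D4:**
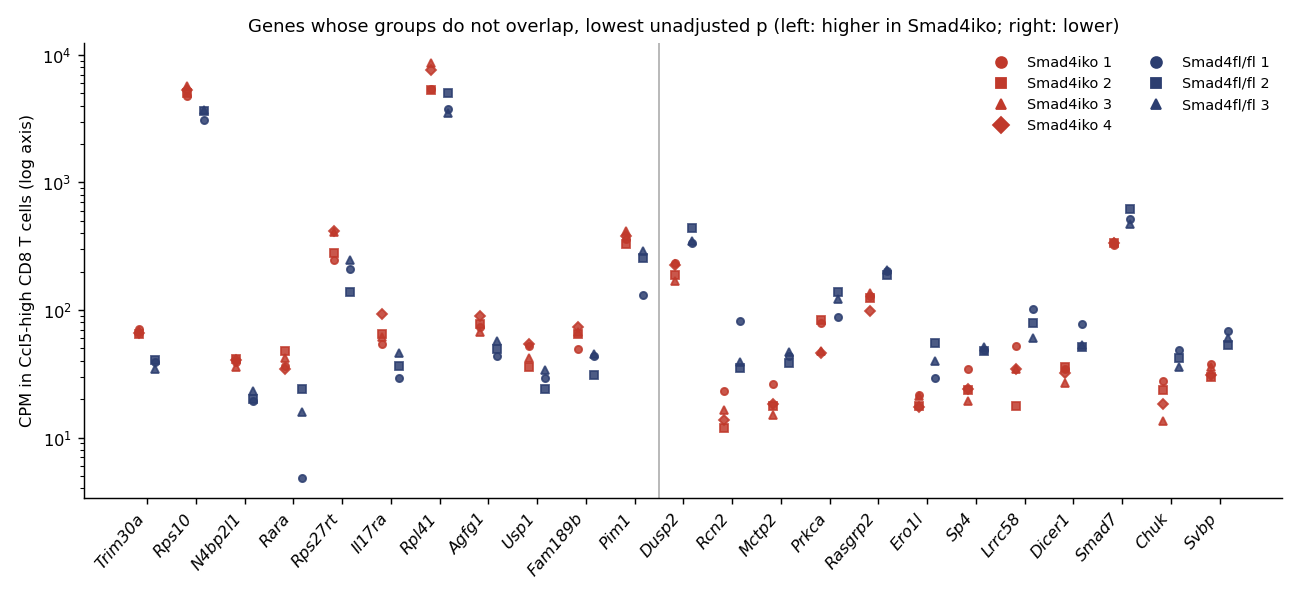
CPM per library, on a log axis, of 23 genes whose groups do not overlap, with Smad4iko left of Smad4fl/fl for each gene. The 11 genes left of the line are higher in Smad4iko, such as Trim30a at 65.2 to 70.7 CPM, and the 12 right of it are lower, such as Dusp2 at 168 to 235 CPM, and none passed adjustment. Hbb-bs, a gene of red cells, is left out of the plot.

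Cytotoxic genes spread widely within both genotypes. Of 14 tested granule and death ligand genes 0 passed, 8 lay above 0 and the median log2 difference was 0.06. Without Smad4fl/fl 3 the count was 13 of 14 with a median of 0.42, and without Smad4fl/fl 1 it was 5 of 14 with a median of -0.12, so count and sign depended on single control libraries. Gzma had 1089, 2223, 81.1 and 609 CPM in Smad4iko, against 316, 424 and 1335 CPM in Smad4fl/fl, a difference of 0.58 ± 0.79. Gzmb had 217, 439, 10.5 and 64.4 CPM, against 102, 64.2 and 234 CPM. Smad4iko 3 was the lowest library in both genes. Prf1, encoding perforin, had 22.5 to 160 CPM and 34.0 to 125 CPM. Effector cytokines were sparse, and the 5 tested of 12 had a median of 0.55 with 0 past the test. That median lay between 0.24 (without Smad4iko 3) and 0.95 (without Smad4fl/fl 3) when a library was left out.

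Klf2, a transcription factor that maintains S1pr1, had 436, 445, 281 and 301 CPM in Smad4iko, against 471, 494 and 709 CPM in Smad4fl/fl, lower in every library (log2 difference -0.50 ± 0.21, unadjusted p = 0.0372, not past adjustment). S1pr1, the receptor for exit into lymph and blood, had 332, 356, 165 and 177 CPM, against 253, 380 and 307 CPM. Of 14 tested circulation genes 0 passed and 5 lay above 0, with a median of -0.05. Without Smad4fl/fl 3, 9 of 14 lay above 0 and the median was 0.12, and without Smad4iko 3 it was 0.04. Cd69, an early activation antigen that retains cells in tissue by removing S1PR1, had 36.2, 29.6, 185 and 241 CPM, against 24.3, 64.2 and 103 CPM. The log2 difference of Cd69 was 1.10 ± 0.69 with all libraries and -0.96 with only Smad4iko 1 and 2, and the same Smad4iko 3 and 4 were high in Ccl5-negative CD8 T cells and NK cells. Of 12 tested residency genes 0 passed, 9 lay above 0 and the median was 0.08. Without Smad4iko 2, 6 of 12 lay above 0 with a median of 0.03, and without Smad4fl/fl 3, 10 of 12 with a median of 0.28. Itgae stayed below the filter on low counts, with 14.8, 11.9, 24.0 and 12.6 CPM, against 14.6, 0 and 6.30 CPM, where 0 UMIs in Smad4fl/fl 2 allow up to 5.51 CPM.

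Of 13 tested naive and central memory genes 0 passed and 10 lay above 0, with a median of 0.17 that lay between 0.09 (without Smad4fl/fl 1) and 0.32 (without Smad4fl/fl 2) when a library was left out. Tcf7, the factor of self-renewing T cells, had 192 to 282 CPM in Smad4iko and 151 to 286 CPM in Smad4fl/fl. Il2rb, a receptor chain for IL-2 and IL-15, had 236 to 628 CPM and 476 to 600 CPM. Of 8 checkpoint genes 0 passed, and Ctla4, an inhibitory receptor, had 16.4, 23.7, 42.0 and 25.3 CPM, against 68.0, 64.2 and 53.5 CPM (log2 difference -0.98 ± 0.35, unadjusted p = 0.0181). Its UMIs came from 3 to 20 cells per library, with up to 18 UMIs in 1 cell.

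Of 11 tested NK receptor genes, 0 passed, 8 lay above 0 and the median log2 difference was 0.87. Leaving out a library moved that median, to 0.29 without Smad4iko 4, 0.41 without Smad4iko 3, 0.53 without Smad4iko 1, 0.54 without Smad4iko 2 and 1.22 without Smad4fl/fl 3. Beside this, the NK cell list summed to 584 to 3224 CPM in Smad4iko and 534 to 1898 CPM in Smad4fl/fl. That list includes Gzma and Prf1, which CD8 T cells express themselves, so its sum does not measure RNA from NK cells. In Smad4iko 2, at 3224 CPM, Gzma alone had 2223 CPM. Without the 22 cells the count was again 8 of 11, with a median of 0.82. Those cells were not chosen by the NK list, so the part of NK cell RNA was not tested. Groups did not overlap in Klra6 and Klra7, members of the Ly49 family of MHC class I receptors. Klra6 had 41.1, 47.4, 13.5 and 24.1 CPM in Smad4iko, against 4.86, 0 and 4.20 CPM in Smad4fl/fl, on 8 to 25 UMIs and 0 to 4 UMIs per library. The single UMI in Smad4fl/fl 1 came from 1 of 17 cells, and even 0 UMIs in that library would allow up to 14.6 CPM. The separation thus rests on few counts. Klra7 had 16.4 to 77.1 CPM and 9.45 to 14.7 CPM. Ly49 genes are close copies of each other, so their counts are uncertain. They lie on chromosome 6, as does the Rosa26 locus that carries Cre in Smad4iko only, and any part of linked alleles was not tested. Klrd1, encoding CD94, had 350 to 538 CPM and 199 to 425 CPM, and Klrg1 0 to 41.5 CPM and 9.72 to 60.9 CPM.

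Of 24 tested interferon-stimulated genes, 0 passed, and 22 lay above 0 against 49.6% of all genes, and the median log2 difference was 0.39. Ifi27l2a had 633, 1197, 784 and 543 CPM in Smad4iko, against 641, 512 and 297 CPM in Smad4fl/fl (0.84 ± 0.31). Ifi206, a member of the interferon-inducible p200 family, had 60.9 to 150 CPM and 19.4 to 64.2 CPM. Isg15, a ubiquitin-like protein, differed by 0.38 ± 0.55. Ifit3 differed by 0.0019 ± 0.32, with 6.90 to 16.4 CPM in Smad4iko and 3.15 to 19.4 CPM in Smad4fl/fl. The other 2 genes of the list lay below 0. Without the 22 cells with RNA of another type, 18 of 20 lay above 0 with a median of 0.30.

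Of 27 T cell receptor signalling genes 17 lay above 0 (median 0.06), of 20 MHC class I genes 8 (median -0.12), of 17 memory CD8 genes 10 (median 0.15) and of 17 terminal effector genes 8 (median -0.07). In each of them 0 genes passed, and single libraries moved them. Without Smad4fl/fl 1, 10 of 27 receptor signalling genes lay above 0 with a median of -0.11 and 11 of 17 terminal effector genes with a median of 0.22. Without Smad4fl/fl 3, 12 of 20 MHC class I genes lay above 0 with a median of 0.08. The memory CD8 median was 0.05 without Smad4iko 1.

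Cell cycle genes had a median of 0.31, with 18 of 25 above 0 and 0 past the test. Top2a, a topoisomerase of dividing cells, had 64.1, 5.93, 168 and 177 CPM in Smad4iko, against 14.6, 47.7 and 25.2 CPM in Smad4fl/fl. The high values belong to Smad4iko 3 and 4. Without Smad4iko 3, 9 of 21 tested lay above 0 with a median of -0.03, and the median was 0.08 without Smad4fl/fl 3 and 0.66 without Smad4fl/fl 1. With only Smad4iko 1 and 2, 6 of 19 tested cell cycle genes lay above 0 and the median was -0.12. Mki67, another gene of dividing cells, was seen in 0 to 6 cells per library. In Smad4iko 3 and 4, 1 cell each held 25 of 54 and 33 of 78 Mki67 UMIs, so its level rests on few cells.

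Shares of cells with a UMI were compared for 18 subset genes at 1500 UMIs per cell, and 0 genes had an adjusted p under 0.05 by the exact permutation test. With a smallest p of 0.0286 before adjustment, no single gene of the 18 could pass alone, so this count was nearly set by the number of mice. Cxcr6, a chemokine receptor of lung resident cells, was seen in 4.02% ± 0.677 of cells in Smad4iko and 1.28% ± 1.14 in Smad4fl/fl, without overlap (exact permutation p = 0.0286, adjusted p = 0.343), on 12 positive cells in all. The groups overlapped when thinned to 1000 UMIs, with means of 1.74% and 1.10%, and unthinned, with 12.7% and 9.27%. Ifng, encoding interferon gamma, was seen in 3.27% and 0.913%, also without overlap (exact permutation p = 0.0571), on 9 positive cells in all. Its groups overlapped unthinned, with means of 10.2% and 8.91%, and thinned to 1000 UMIs, with 3.44% and 1.47%. In Smad4fl/fl 1, 0 of 17 cells for either gene allows a share of up to 17.6%, so neither separation is shown at this depth. Ly6c2 was seen in 54.2% ± 2.63 and 43.9% ± 8.58, and Ccr7 in 30.9% ± 11.5 and 43.0% ± 11.8, both overlapping. The adjusted p of the other genes lay between 0.343 and 0.943.

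**Figure D5:**
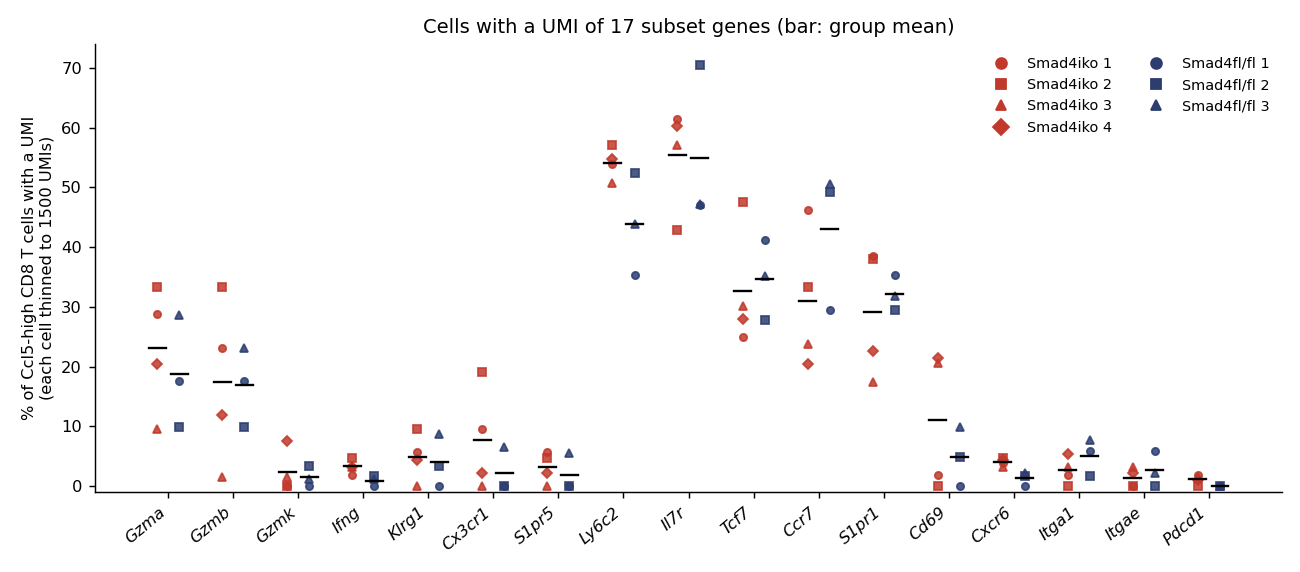
Percentage of Ccl5-high CD8 T cells with at least 1 UMI of each of 17 genes after thinning every cell to 1500 UMIs, with 1 point per library, Smad4iko left of Smad4fl/fl and a bar at each group mean. Groups overlap in the genes shown except Cxcr6, at 3.17% to 4.76% against 0 to 2.20%, and Ifng, at 1.92% to 4.76% against 0 to 1.64%, and both of these overlap without thinning.

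RNA of other cell types was present and uneven. The mesenchyme marker list summed to 15.01 to 35.6 CPM in Smad4iko and to 10693, 14.7 and 24.1 CPM in Smad4fl/fl 1 to 3. The erythroid and platelet list summed to 67.4, 5.93, 12161 and 7676 CPM in Smad4iko 1 to 4, against 4.86, 5.51 and 4.20 CPM in Smad4fl/fl 1 to 3. B cell genes summed to 279 to 2775 CPM and 128 to 4431 CPM. Hbb-bs, a beta globin gene, had 24.7, 5.93, 5083 and 3889 CPM in Smad4iko and 0, 1.84 and 2.10 CPM in Smad4fl/fl, so the difference rests on Smad4iko 3 and 4. In those libraries 1 cell each held 2333 of 3386 and 2251 of 3383 Hbb-bs UMIs, and 0 UMIs in Smad4fl/fl 1 allow up to 14.6 CPM. The gene was nonetheless seen in 60 of 63 cells of Smad4iko 3 and 69 of 93 cells of Smad4iko 4. It was seen in 13 and 1 cells of Smad4iko 1 and 2 and in 0, 1 and 2 cells of Smad4fl/fl 1 to 3. Neutrophil genes summed to 187 to 492 CPM and 16.5 to 136 CPM without overlap, while S100a8 and S100a9 were limited by the rule itself. Ncr1 was 0 by rule. The part of this RNA in the gene differences was tested only by leaving out 22 cells with over 1% of it, which again left 0 of 5364 genes called. RNA of NK cells and of other T cells did not enter the choice of those 22 cells, so its part was not tested.

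Whether the genotype effect was particular to these cells was tested as the difference of the effects within libraries. Against Ccl5-negative CD8 T cells, limma called 0 of 6084 genes (0.0%), with 319 at an unadjusted p under 0.05 (5.24%). Against NK cells it called 0 of 6075 genes (0.0%), with 290 at an unadjusted p under 0.05 (4.77%). The effect on Smad7 was -0.52 in Ccl5-high and -0.43 in Ccl5-negative CD8 T cells, a difference of -0.09 ± 0.17 (SE) with an unadjusted p of 0.601 in limma. That on Trim30a was 0.91 and 0.71, a difference of 0.20 ± 0.22. Against NK cells, whose Trim30a effect was 0.05, the difference was 0.86 ± 0.29 (unadjusted p = 0.0166 in limma, not past adjustment). Trim30a was picked by its low p in the same Ccl5-high libraries. Its effect there may thus be overstated, and this p is not an independent test. In simulated counts of Ccl5-high and Ccl5-negative cells this test called none of the genes changed 4-fold after adjustment. Of these genes, 94.0% had an unadjusted p under 0.05. The simulated populations were drawn without a shared effect of the mouse, so the power in the real pairs may differ. The test's count of 0 therefore says little at this number of mice.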

How the data were processed

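The authors deposited 1 matrix of raw counts (UMIs per gene and barcode, not normalized) per library, written by Cell Ranger 6.1.1 per the file headers. The submitters' processing notes name fastp, UMI-tools and the build mm10, without versions of the tools or the step each served. The files hold 55671 barcodes and 31253 genes. Cells were gated on raw UMIs as described above, and UMIs were summed per library, so that the mouse is the replicate. Differences were tested with edgeR 4.0.16 (filterByExpr, TMM, quasi-likelihood, genotype only, Benjamini-Hochberg over all genes, threshold 0.05), checked on simulated data. DESeq2 1.42.0 was an alternative. Effects in other populations were compared with limma 3.58.1 on log2 CPM differences within libraries (prior count 2). Shares were tested by exact permutation over 35 splits of libraries. Scrublet (scanpy 1.11.5) marked 2.15% to 13.5% of the Ccl5-high cells per library as doublets, against 1.75% to 3.79% of all kept barcodes. These doublets were left out only in an alternative. No pair of libraries of 1 genotype agreed within sampling noise (chi-square per gene of 2.23 or more). Genes are named by a rule: Smad4, a list of anchor genes, and up to 12 genes per direction with no overlap between groups, average log2 CPM of at least 5 and the lowest p. The cells, lists and rules were chosen with earlier results of these data known.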

Additional observations from a re-analysis of the deposited data

How the results depend on the processing

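The count of genes called stayed at 0 under every alternative tried but 2: DESeq2 called 2 genes and the replicate block called 2 (Hbb-bs and Hba-a1). The replicate numbers are not known to pair the mice: same-numbered libraries deviated together with correlations of 0.30, -0.09 and -0.13. Leaving out a library gave 0 for that count, for both comparisons of effects between populations and for the 18 shares of cells with a UMI. This says nothing of the stability of the last 3, since no share could then pass (smallest p 0.0667 or 0.1) and the simulated comparison of effects called 0 genes. The difference in the share of kept barcodes, 0.0313 percentage points, turned to -0.0386 when cells were thinned to 1500 UMIs before the rule and to -0.220 with Smad4iko 1 and 2 only, and ranged from -0.251 (without Smad4fl/fl 1) to 0.276 (without Smad4fl/fl 3) when a library was left out. It was also negative, -0.155, without Smad4iko 4. The difference in the share of gated CD8 T cells, -1.16 points, ranged from -4.56 to 1.34, the last without Smad4fl/fl 3. With a covariate for Smad4iko 3 and 4, and with Smad4iko 1 and 2 only, the log2 differences turned to -1.003 and -0.96 for Cd69, -0.0241 and -0.00539 for Tcf7, and -0.299 and -0.343 for Mki67. The cause was not tested. Of 67 named genes, 38 never changed sign, among them all 24 named for groups that do not overlap, and 26 of the other 29 had a difference smaller than its SE. Those 24 were picked from these same libraries because their groups do not overlap. Their sign could therefore hardly change, and its constancy is no sign of stability.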

Other observations

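Pianp, which like the Rosa26 locus lies on chromosome 6, was too sparse for the test in Ccl5-high CD8 T cells and was looked at because it was noted in earlier results of these data. It had 0, 0, 1.501 and 0 CPM in Smad4iko 1 to 4, on 1 UMI in all, and 4.86, 12.8 and 11.5 CPM in Smad4fl/fl 1 to 3, on 19 UMIs in all. The counts are too few to show a separation, since 0 UMIs in Smad4iko 2 allow up to 17.8 CPM and in Smad4iko 1 up to 4.93 CPM, and any part of linked alleles was not tested.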
